A study of Mus musculus with 10 samples.

Results

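Genes that span 500 kb or more were examined outside the X and Y chromosomes and chromosome 16, in nascent RNA of mouse embryonic stem cells. A gene was taken when the deposited start and end lay at least 500 kb apart and its mean count was at least 50 over the 10 samples, and 138 of 24386 genes met both conditions. Neither condition uses the time of treatment or the allele, so change over time and allelic balance were tested, whereas the levels are given as a description. At any count, 258 autosomal genes were this long. The rule also leaves out Kcnq1ot1, Airn and Trappc9, which removed no gene because their spans were 83.4, 119 and 472 kb. At the length limit, Edil3 (502 kb) and Dock1 (503 kb) were just inside and Ank3 (494 kb) and Abca13 (492 kb) just outside. At the count limit, Edil3 (51.4 counts), Ctnna3 (52.9) and Malrd1 (53.9) were just inside and Adarb2 (49.8), Kirrel3 (47.4) and Fstl5 (41.9) just outside.

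The cells were wild-type (WT) TX1072, a female hybrid line with one Mus musculus castaneus (Cast) and one C57BL/6 (B6) genome, grown with serum, LIF and the 2 inhibitors known as 2i. In this line doxycycline (DOX) drives the endogenous Xist gene of the B6 X chromosome, and DOX at 1 µg/ml was added one day after plating. RNA was labelled with 0.5 mM 4-thiouridine for 5 min at 0, 4, 8, 12 and 24 h of DOX and read by TT-seq, which sequences the labelled, newly made RNA. There were 2 replicates per time. All samples come from this single line, every DOX sample expressed Xist (329 to 664 CPM, counts scaled to the library total, against 1.41 to 1.53 at 0 h), and no sample had DOX without Xist, so that effects of the drug, of Xist and of time in culture cannot be told apart. The study calls the replicates biological duplicates, and whether they were separate cultures is not given in the sources used here, so p-values measure the spread between these samples. The labelled cell type was checked against 10 markers of naive pluripotent cells, of which 9, Pou5f1 and Nanog among them, were above 10 CPM and Sox2 was listed at 0. Of 10 markers of neural progenitors and neurons, 7 were under 1 CPM and Gad1 alone was above 10. Of 6 trophoblast markers Tfap2c alone was above 10 CPM, 3 were under 1 and Prl3d1 was at 0, and their sum was 20.2 to 24.0 CPM in the 0 h samples and 13.6 to 14.2 CPM at 24 h.

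Very long genes are mostly intron. RNA polymerase needs hours to cross them, so that a short pulse of labelling marks RNA along the whole body, far from the promoter as well as near it. Many of them encode adhesion molecules, receptors and scaffolds of synapses and are known for their expression in neurons, and several lie in chromosomal fragile sites, regions that break when replication is slowed.

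The 138 genes lay on 18 chromosomes and spanned 502 to 2271 kb with a median of 730 kb, and 32 of them reached 1000 kb. The longest were Ptprd, a receptor tyrosine phosphatase of synapses (mm10, chromosome 4, 75941237 to 78211895), Cntnap2, a neurexin-like adhesion protein (chromosome 6, 45060061 to 47301371), and Lrp1b, a lipoprotein receptor family member (chromosome 2, 40596773 to 42653598). By name and position 133 genes were protein coding in GENCODE. Annotated exons covered a median of 1.25% of the span in the 130 genes with a value, and at most 7.53% in Syne1, so nearly all counted positions were intronic. In 6 genes (Gm10377, Gm21119, Mir8115, Vmn2r47, Zfp973 and Zfp991) the deposited span was 24.9 to 230.3 times the annotated gene or lay away from it, and these spans are not single transcription units. They held 5.94% of the genes' counts. Snhg14, a noncoding host of small nucleolar RNAs, shared 52.3% of its span with same-strand genes such as Snrpn. The shared part exceeded 10% in 5 of the 138 genes, Snhg14 and Magi1 (17.2%) among them. The study's counting options list none that assigns a read to more than 1 gene. Levels per kb of the full span may therefore be too low in these genes, which was not tested.

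Promoter windows at the deposited 5′ ends differed widely in sequence. RefSeq (GRCm38.p6, the assembly called mm10) held a promoter window of 300 bases, 250 before and 50 after the start site, within 10 bases of the deposited 5′ end for 89 of the 138 genes. These 89 windows held 0 to 54 CpG dinucleotides (the letters CG, which read the same on both strands) with a median of 23, beside 24 for genes of 200 to 500 kb, 24 for 50 to 200 kb and 21 for genes under 50 kb with the same count minimum. The letters TATAAA, on either strand, were present in 10.1% of the 89 windows (9 windows), beside 4.33%, 6.07% and 6.17% of the windows of the 3 shorter classes in the same order, and 13.6% of all 32851 promoter windows of the table at any count. Levels were only weakly ordered by CpG number (Spearman's rho 0.12 across the 89 genes, which share libraries and are not independent). The following windows are shown because Etl4 and Ptprg had the highest levels, with 1 and 36 CpGs at the deposited 5′ end, and Sdk1 and Negr1 fell with time from windows of 54 and 29 CpGs. CpGs are in capitals. The Etl4 window is not at the start of the annotated gene: the deposited span of 521 kb begins 380 kb inside the RefSeq gene, which spans 900.3 kb and has 3 windows in the table, so the RNA counted need not begin there. In 3 of the 89 genes the deposited 5′ end lay over 10 kb inside the RefSeq gene. The windows lie at chr2:20289663-20289962, chr14:11553303-11553602, chr5:141241284-141241583 and chr3:156561544-156561843, all on the plus strand.
Etl4: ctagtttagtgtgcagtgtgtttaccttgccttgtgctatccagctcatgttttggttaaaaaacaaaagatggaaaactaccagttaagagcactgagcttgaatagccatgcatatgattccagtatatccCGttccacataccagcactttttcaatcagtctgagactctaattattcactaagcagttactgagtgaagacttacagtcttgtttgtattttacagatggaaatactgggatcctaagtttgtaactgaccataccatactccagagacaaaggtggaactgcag
Ptprg: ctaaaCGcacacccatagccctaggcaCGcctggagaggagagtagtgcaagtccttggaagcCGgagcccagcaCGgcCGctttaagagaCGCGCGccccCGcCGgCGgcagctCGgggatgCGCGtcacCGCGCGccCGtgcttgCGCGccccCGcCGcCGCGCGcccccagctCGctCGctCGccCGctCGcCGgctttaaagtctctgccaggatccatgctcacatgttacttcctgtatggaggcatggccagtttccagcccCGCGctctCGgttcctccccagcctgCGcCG
Sdk1: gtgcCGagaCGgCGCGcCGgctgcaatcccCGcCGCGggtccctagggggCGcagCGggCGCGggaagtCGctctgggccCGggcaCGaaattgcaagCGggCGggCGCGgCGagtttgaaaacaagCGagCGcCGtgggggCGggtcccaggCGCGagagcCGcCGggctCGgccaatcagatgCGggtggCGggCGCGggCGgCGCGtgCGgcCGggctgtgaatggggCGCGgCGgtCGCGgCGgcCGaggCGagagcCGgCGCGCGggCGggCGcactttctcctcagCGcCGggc
Negr1: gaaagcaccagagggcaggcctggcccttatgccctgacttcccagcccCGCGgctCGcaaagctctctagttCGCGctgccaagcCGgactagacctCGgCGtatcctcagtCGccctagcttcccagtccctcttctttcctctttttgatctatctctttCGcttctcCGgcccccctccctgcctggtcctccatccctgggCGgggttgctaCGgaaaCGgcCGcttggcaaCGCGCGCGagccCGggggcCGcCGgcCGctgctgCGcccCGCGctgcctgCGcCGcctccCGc

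Levels of nascent RNA differed widely among the long genes. Levels are CPM per kb of span, abbreviated below as units. They ran from 0.00162 units in Ctnna3 to 2.81 in Etl4, a 1733-fold range with a median of 0.0372. The median was 0.261 units for 535 genes of 200 to 500 kb, 1.15 for 2610 genes of 50 to 200 kb and 1.69 for 7411 genes under 50 kb. The count minimum asks less of a long gene per kb, so these medians are a description of the selected genes. Only 12 of the 138 genes reached 1 unit, 89 were below 0.1 and 37 below 0.01. The top 10 genes held 44.0% of the counts.

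Etl4, a gene of the Skt family known for its role in the vertebral column (chromosome 2, 20289913 to 20810535), led with 2.98 and 2.55 units (0 h), 2.80 and 2.69 (4 h), 2.91 and 2.68 (8 h), 2.98 and 2.53 (12 h), and 3.11 and 2.90 (24 h). Ptprg, a receptor tyrosine phosphatase (chromosome 14, 11553553 to 12242041), followed with 2.63 ± 0.103 units (SD over 10 samples), and Exoc4, a subunit of the exocyst that tethers secretory vesicles, with 2.38 ± 0.0968. The teneurin Tenm4 stood at 1.71 ± 0.108, the vesicle transport protein Vps13b at 1.41 ± 0.0715 and the polarity protein Pard3 at 1.40 ± 0.0604. The receptor phosphatase Ptprk (1.19 ± 0.0393), the Rac regulator Elmo1 (1.165 ± 0.119) and its partner Dock1 (1.07 ± 0.0428) were also among the top 10. The sample ranges overlapped in 130 of 137 pairs of neighbours in rank, so most neighbours did not differ beyond the spread over samples. The longest genes were far lower: Cntnap2 ranged over samples from 0.0226 to 0.0290 units, Ptprd from 0.0201 to 0.0233 and Lrp1b from 0.00133 to 0.00178. Across the 138 genes longer spans went with lower levels (Spearman's rho -0.41), a description over genes whose level is itself divided by the span.

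**Figure D1:**
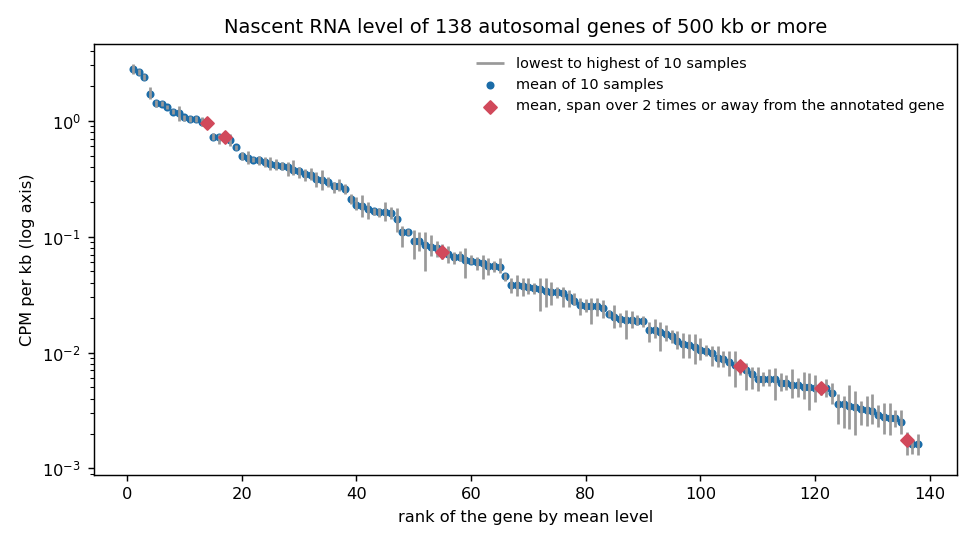
Nascent RNA level of the 138 genes in CPM per kb (log axis) against rank, with the mean (points) and range (lines) of 10 samples and the 6 spans that are not single units as diamonds. Levels fall from 2.81 for Etl4 to 0.00162 for Ctnna3, and most sample ranges are narrow beside that range.

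Median levels differed between lists of function, while the ranges of the lists overlapped and no difference between lists was tested. The 12 genes of the cytoskeleton, polarity and trafficking list had a median of 0.3003 units (0.00325 to 2.38), led by Exoc4 and Vps13b. The 14 of the list of metabolic enzymes and transporters had a median of 0.302, led by Hs6st3 and St6galnac3, which modify heparan sulfate and gangliosides. Without Gpc6 and Alk, which stand in the axon guidance list too, the median of the other 12 was 0.165. The 6 of the kinase, phosphatase and cyclic nucleotide list had 0.215, led by Dock1 and the phosphodiesterase Pde4d. The 25 adhesion molecules and synapse organisers had a median of 0.0157 (0.00162 to 2.63) although Ptprg and Tenm4 belong to them. The 16 ion channels and receptors had 0.0265, led by the calcium release channel Ryr2 (0.676) and by Dpp6, a potassium channel subunit (0.160). The 7 axon guidance genes had 0.0240, led by Gpc6 and Alk, and the 13 synaptic scaffolds 0.0586, led by Magi1 (0.967) and Rims1 (0.377). The 12 transcription and chromatin proteins had 0.0620, led by Smyd3 (1.04) and Auts2 (0.404), and the 23 fragile site genes had 0.0355, led by Exoc4 and Pard3. Celf2 (0.212) was the single member of the RNA binding list. A gene may stand in more than one list, and 31 of the 138 stood in none. The list names are loose, as with Alk and Gpc6 among enzymes and transporters and Dock1, the partner of Elmo1, in the kinase list. All medians lie beside 0.0372 for the 138 genes together.

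The share of all counts that fell in the 138 genes stayed between 2.25 and 2.44%. It was 2.33 and 2.25% (0 h), 2.29 and 2.41% (4 h), 2.40 and 2.301% (8 h), 2.44 and 2.29% (12 h), and 2.33 and 2.32% (24 h). At every later time at least 1 sample lay within the range of the 0 h samples. Replicate 2 at 4 h and replicates 1 at 8 h and 12 h were the highest, and these libraries also had the lowest share in genes under 50 kb (36.8, 37.3 and 36.8% against 37.8 to 38.9% in the other samples) and the highest in genes of 200 to 500 kb (10.0, 9.96 and 10.1% against 9.47 to 9.81%). The part of these libraries in the changes described next was not tested beyond the fits with each left out. Relative to 0 h the mean share changed by 2.56 ± 4.52%, 2.72 ± 3.90%, 3.29 ± 5.14% and 1.40 ± 2.33% at 4, 8, 12 and 24 h in turn (SD propagated from 2 replicates each), so none of these changes exceeded this SD, which does not pair the samples. Paired by replicate number, the share differed from 0 h by -0.0408 and 0.158 percentage points (4 h), 0.0757 and 0.0486 (8 h), 0.112 and 0.0385 (12 h), and -5.7e-05 and 0.0642 (24 h) in replicates 1 and 2 in turn. Both pairs were higher at 8 h (0.0622 ± 0.0192, SD of the differences, n = 2 pairs) and at 12 h (0.0754 ± 0.0522), by more than that SD, whereas at 4 h and 24 h the pairs differed in sign. An exact permutation test cannot give a p below 0.333 for 2 samples against 2, nor below 0.5 for 2 pairs, and none was run. Libraries held 18809046 to 22274929 counts, of which 429874 to 516026 lay in the long genes.

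**Figure D2:**
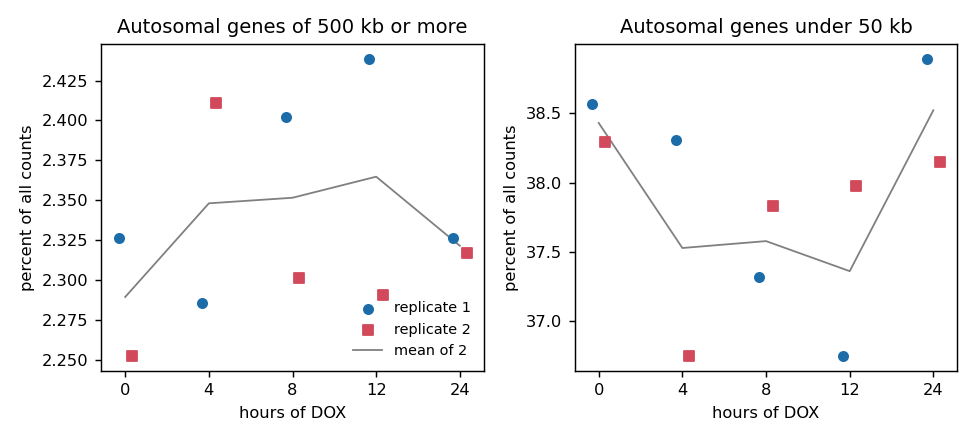
Percent of all counts in the 138 genes of 500 kb or more (left) and in autosomal genes under 50 kb (right) against hours of DOX, drawn at even steps, with each replicate as a point, the mean as a line and axes that do not start at 0. The share in long genes stays between 2.25 and 2.44%, and the libraries highest at left are lowest at right.

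Few long genes were called with DOX in the fit without a replicate block, and more with the block, which is given further below. Total counts were compared with 0 h by edgeR's quasi-likelihood test over 14525 genes, with Benjamini-Hochberg adjustment over all of them, and a gene was called at an adjusted p under 0.05. No long gene was called at 4 h or 8 h, where 0.0138% and 0.193% of all genes were called. These genes include X-linked ones of the chromosome that Xist coats, and among the 13530 autosomal genes tested (without chromosome 16, as for the long genes) the shares were 0.00739% and 0.00%. At an unadjusted p under 0.05 in edgeR, 2 long genes (1.45%) were higher and 0 lower at 4 h, beside 0.916% and 0.983% of autosomal genes. At 8 h 3 (2.17%) were higher and 0 lower, beside 1.25% and 1.43%. DESeq2 called none at these times either. The lowest p-values at 4 h belonged to the polarity gene Pard3b (log2 change 0.24 ± 0.098 SE) and to Nkain3 (0.31 ± 0.13) upward, and to the calcium channel gene Cacna1c (-0.31 ± 0.21) and Thsd4 (-0.10 ± 0.075) downward, all with an adjusted p of 1.00. At 8 h they belonged to Macrod2 (0.23 ± 0.093) and the deacetylase gene Hdac9 (0.23 ± 0.097) upward and to the catenin gene Ctnna2 (-0.37 ± 0.25) and Sugct (-0.20 ± 0.16) downward, all with an edgeR adjusted p of 0.996.

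At 12 h 1 long gene, Macrod2, was called higher (0.725% of 138) and none lower. In these directions 0.0964% and 0.854% of all genes were called, and 0.0961% and 0.0813% of autosomal genes. Of the 535 genes of 200 to 500 kb, 5 were called higher and 2 lower. Macrod2 encodes an enzyme that removes ADP-ribose from proteins and lies at a fragile site (chromosome 2, 140395430 to 142390050). It gave 42.3 and 48.6 CPM (0 h), 49.4 and 50.3 (4 h), 50.01 and 54.1 (8 h), 57.9 and 59.1 (12 h), and 49.5 and 52.6 (24 h). Both 12 h samples lay above all others. Its log2 change at 12 h was 0.41 ± 0.093 (SE) with an adjusted p of 0.0487 in edgeR, which lies so close to the limit that leaving out any of 9 libraries, among them replicate 1 at 0 h (adjusted p 0.322), ended the call. Immp2l, a mitochondrial inner membrane peptidase, was next with a log2 change of 0.39 ± 0.088 and an edgeR adjusted p of 0.0546. Downward the lowest p-values were those of the ion channel gene Asic2 (-0.57 ± 0.23) and the adhesion receptor gene Adgrl3 (-0.49 ± 0.23), with edgeR adjusted p-values of 0.347 and 0.421.

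At 24 h 1 long gene rose (0.725%) and 2 fell (1.45%). Of all genes 0.310% were called higher and 1.54% lower, and of autosomal genes 0.303% and 0.237%. Of the 535 genes of 200 to 500 kb, 6 were called higher and 7 lower, so such calls were not particular to the longest genes. Syne1, a giant protein of the nuclear envelope that links it to the cytoskeleton (chromosome 10, 5020196 to 5550692), was at 89.3 and 91.7 CPM (0 h), 92.3 and 99.3 (4 h), 93.1 and 99.3 (8 h), 96.3 and 100.8 (12 h), and 109 and 117 (24 h). The 24 h samples lay above all others, with a log2 change of 0.33 ± 0.080 and an edgeR adjusted p of 0.048. Sdk1, a sidekick adhesion protein of synapses (chromosome 5, 141241534 to 142213791), was at 28.7 and 24.3 (0 h), 26.9 and 27.3 (4 h), 26.1 and 23.5 (8 h), 25.7 and 25.05 (12 h), and 19.5 and 17.2 (24 h). Here the 24 h samples lay below all others, with a log2 change of -0.51 ± 0.11 and an edgeR adjusted p of 0.0202. Negr1, a GPI-anchored neuronal adhesion protein (chromosome 3, 156561794 to 157316464), was low throughout, at 7.71 and 6.25 CPM (0 h) and 4.12 and 3.82 (24 h), which rested on 161 and 137 counts against 81 and 85. Its samples at 4, 8 and 12 h ran from 5.05 to 7.14. Its log2 change was -0.80 ± 0.19 with an edgeR adjusted p of 0.048. Leaving out replicate 1 at 0 h ended all 3 calls, with edgeR adjusted p-values of 0.239 for Syne1, 0.211 for Sdk1 and 0.315 for Negr1, and so did leaving out either 24 h library. The summed trophoblast markers were also lower at 24 h, with 1 of the 6 called (the transcription factor gene Tfap2c, log2 change -0.72 ± 0.13, edgeR adjusted p 0.0083), and their part in these changes was not tested.

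A linear trend over the 5 times called 1 long gene upward (0.725%) and 3 downward (2.17%). It called 0.826% and 2.33% of all genes and 0.835% and 0.650% of autosomal genes in these directions. Of the 535 genes of 200 to 500 kb it called 11 upward and 15 downward. Upward it called Syne1 (log2 change over 24 h 0.31 ± 0.069, adjusted p 0.00995 in edgeR). Downward it called Sdk1 (-0.53 ± 0.11, adjusted p 0.00893), Negr1 (-0.75 ± 0.18, adjusted p 0.0194) and Sox6 (-0.79 ± 0.17, adjusted p 0.00698). Sox6 encodes a transcription factor of the SOX family and lies at chromosome 7, 115470872 to 116038744. Its CPM were 62.2 and 45.7 (0 h), 62.4 and 47.7 (4 h), 61.9 and 47.4 (8 h), 51.6 and 37.7 (12 h), and 36.1 and 28.8 (24 h). Replicate 1 was above replicate 2 at every time, and both fell between 8 h and 24 h. Without replicate 2 at 24 h none of these 4 genes was called.

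**Figure D3:**
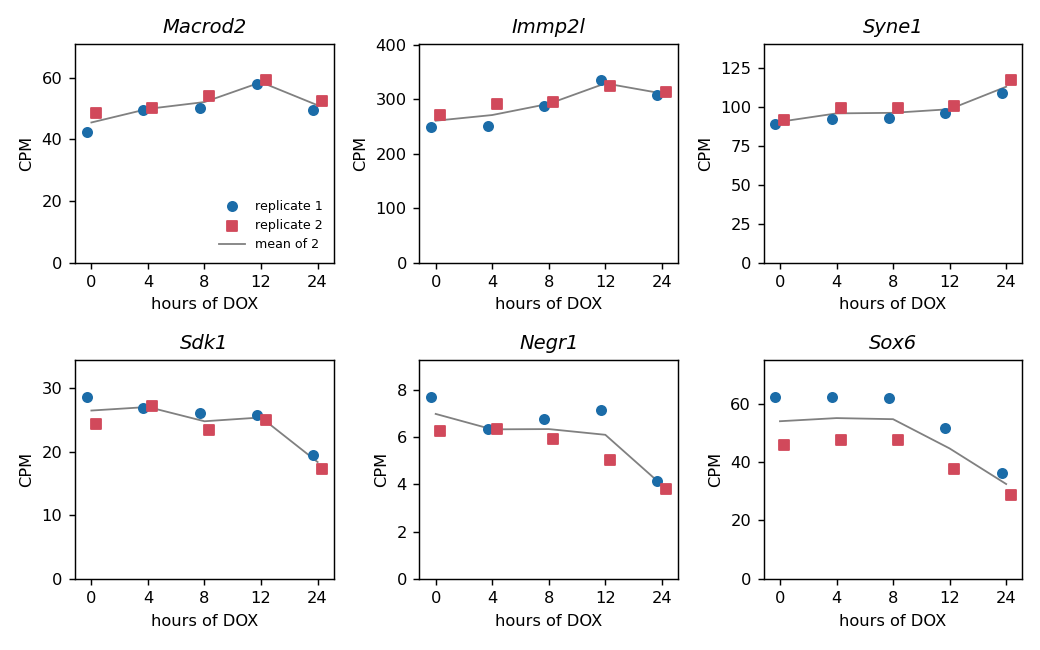
CPM of 6 long genes against hours of DOX, drawn at even steps, with each replicate as a point and the mean as a line; every axis starts at 0. Macrod2 and Immp2l peak at 12 h, Syne1 is highest at 24 h, and Sdk1, Negr1 and Sox6 are lowest at 24 h, with Sox6 split by replicate.

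The replicate numbers marked samples that deviated together at every pair of times, so the same fit was made with the replicate number as a block. It called 11 long genes higher (7.97%) and 0 lower at 12 h. Of all genes the block called 1.96% and 2.99%, and of autosomal genes 2.00% and 1.13%. Those 11 were Immp2l, Macrod2, Enox1, Gabrg3, Pkhd1, Rims1, Ccser1, Tmem132d, Snhg14, Dgkb and Lrba. At 24 h the block called 4 long genes higher (2.90%), namely Syne1, Immp2l, Tmem132d and Unc5d. It called 10 lower (7.25%), namely Sox6, Sdk1, Alk, Negr1, Fhit, Ptprt, Gabrg3, Clstn2, Plcb1 and Ptprn2. Of all genes 1.87% were called higher and 3.46% lower, and of autosomal genes 1.86% and 1.41%. The trend called 2 upward (1.45%) and 11 downward (7.97%), beside 2.04% and 3.64% of all genes and 2.07% and 1.62% of autosomal genes. With the block Sox6 at 24 h had a log2 change of -0.71 ± 0.078 (edgeR adjusted p 1.4e-08), and Immp2l at 12 h one of 0.39 ± 0.071 (adjusted p 3.5e-04). Immp2l gave 261 ± 15.1 CPM at 0 h (SD, n = 2) and 329 ± 7.68 at 12 h, and these samples did not overlap. Gabrg3, a GABA-A receptor subunit, was called higher at 12 h and lower at 24 h in this fit.

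By function the called genes were few in number, in lists that are themselves small. Of autosomal genes 0.0961% were called higher at 12 h, and 0.303% higher and 0.237% lower at 24 h. With the block these shares were 2.00%, 1.86% and 1.41% in the same order. The trend called 0.835% upward and 0.650% downward. DESeq2 called 0.288% higher at 12 h and 0.924% lower by the trend. Of the 25 adhesion molecules and synapse organisers, 0 rose and 2 fell at 24 h (Sdk1 and Negr1), and with the replicate block 0 rose and 5 fell, the other 3 being Ptprt, Clstn2 and Ptprn2. Their median log2 change at 24 h was -0.09, beside -0.02 for the 138 genes and 0.01 for 13530 autosomal genes tested. Of the 23 fragile site genes 1 was called higher at 12 h (Macrod2) and 1 lower at 24 h (Sdk1), and with the block 3 were higher at 12 h and 1 higher and 2 lower at 24 h. Macrod2 was also the single call in the list of metabolic enzymes and transporters in the edgeR fit. To it DESeq2 added Immp2l at 12 h and Alk, lower by the trend. With the block 2 genes of this list were higher at 12 h (Immp2l and Macrod2), and at 24 h 1 was higher (Immp2l) and 2 lower (Alk and Fhit). Alk, a receptor tyrosine kinase, is in this list as it was written and is not a metabolic enzyme or transporter. In the list of cytoskeleton, polarity and trafficking genes Syne1 alone was called without the block, and with the block Lrba was also higher at 12 h. Among the transcription and chromatin proteins Sox6 alone was called, by the trend and, with the block, at 24 h too. The ion channels, scaffolds, kinases, axon guidance genes and Celf2 had no call of total counts in edgeR without the block, whereas DESeq2 called Alk and Plcb1 lower by the trend. It also called Ptprn2 of the adhesion list lower by the trend. With the block Gabrg3, Rims1 and Dgkb of these other lists were higher at 12 h. At 24 h Unc5d was higher and Gabrg3, Plcb1 and Alk were lower.

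Median changes were small, and at 4, 8 and 12 h those of all classes of 50 kb or more were of like size. The median log2 change of the long genes was 0.05, 0.06, 0.06 and -0.02 at 4, 8, 12 and 24 h in turn, beside 0.00, 0.00, 0.00 and 0.01 for the autosomal genes tested. It was 0.05, 0.05, 0.04 and 0.00 for genes of 200 to 500 kb, 0.04, 0.06, 0.08 and 0.02 for 50 to 200 kb, and -0.02, -0.02, -0.01 and 0.01 under 50 kb. At 8 h 101 of the 138 long genes had a positive change, and their median stayed positive with each library left out (0.04 to 0.08). At 4 h it was -0.02 without replicate 2 of 4 h, at 12 h -0.00 without replicate 1 of 12 h, both libraries that were high in long genes, and at 24 h 0.01 without replicate 2 of 0 h. At an unadjusted p under 0.05, 23 long genes (16.7%) were higher and 2 (1.45%) lower at 12 h, against 5.53% and 4.08% of the autosomal genes. At 24 h 7 (5.07%) were higher and 15 (10.9%) lower, against 4.66% and 3.34%.

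Allelic balance varied widely among the long genes of low level. It is given as the d-score, the B6 share of reads that could be assigned to an allele. In 132 of the 138 genes every sample had at least 10 allelic reads, and in 101 at least 50. Over the 101 genes the median pooled d-score was 0.536 with an interquartile range of 0.462 to 0.640. Genes of 200 to 500 kb, of 50 to 200 kb and under 50 kb each had a median of 0.525, so a median above 0.5 was not particular to the long genes. In 28 of the 101 genes (27.7%) it was under 0.3 or over 0.7, beside 18.4% of 456 genes of 200 to 500 kb, 8.58% of 2402 genes of 50 to 200 kb and 4.96% of 5846 genes under 50 kb. Of the 28, 10 favoured Cast and 18 B6, and all 28 kept to the same side of 0.5 in each of the 10 samples. They were chosen by the d-score pooled over these samples, which largely fixes that side. The skewed genes were among the less transcribed: of the 17 genes at 0.5 units or more, 0 were skewed (d-scores 0.437 to 0.609), and of the 84 below, 28 were (33.3%). With only 17 genes, 0 skewed is a rough count. Its approximate upper limit, 3 over 17 or 17.6%, takes the genes as independent, although they share libraries. Below 0.5 units the shorter classes also held more skewed genes, with 27.3% of 242, 22.1% of 638 and 16.3% of 553 genes from the longest to the shortest class. At 0.5 units or more these classes held 8.41% of 214, 3.68% of 1764 and 3.78% of 5293 skewed genes. These shares are counts over genes and carry no test, and mapping differences between the strains were not tested.

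**Figure D4:**
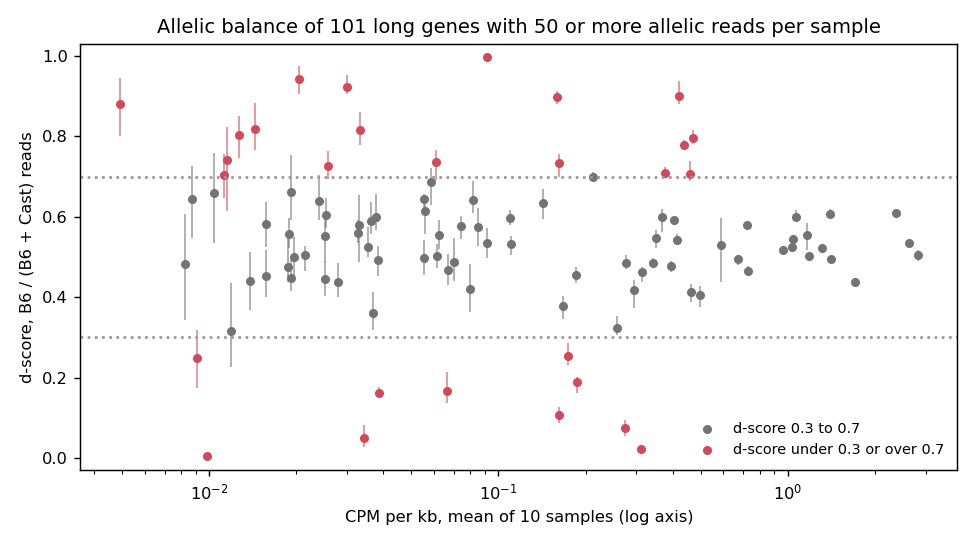
Pooled d-score (B6 over B6 plus Cast reads) against mean level in CPM per kb (log axis) for the 101 genes whose samples all had 50 or more allelic reads, with lines from the lowest to the highest sample. The 28 genes outside 0.3 to 0.7 all lie below 0.5 units.

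At the Cast end stood Agbl1, a tubulin deglutamylase gene (chromosome 7, 76229887 to 77124698), with 5 B6 and 1227 Cast reads over all samples and a d-score of 0 to 0.00929. Alk, a receptor tyrosine kinase of the nervous system (chromosome 17, 71868988 to 72604307), had 725 B6 and 32657 Cast reads, with d-scores of 0.0121 to 0.0261 and a median of 0.0229 over samples. Csmd2 (0.0272 to 0.0821), Thsd4 (0.0545 to 0.0946) and the receptor phosphatase gene Ptprm (0.0880 to 0.127) followed. At the B6 end stood Gabrg3 (chromosome 7, 56724242 to 57386871) with 8595 B6 and 15 Cast reads and d-scores of 0.995 to 1.00. Next came Rgs6, a regulator of G protein signalling (0.905 to 0.976), the glutamate receptor gene Grm8 (0.907 to 0.953), Pkhd1, the gene of recessive polycystic kidney disease (0.880 to 0.939), and Dpp6 (0.882 to 0.914). Over the 28 skewed genes the median SD of the d-score across the 10 samples was 0.0178.

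The d-score of a long gene was not ordered by that of its neighbours. Over the 78 long genes with at least 3 other genes of 50 allelic reads per sample within 1000 kb, Spearman's rho between d-score and neighbour median was 0.0034, a description over genes of the same libraries. For 23 of the 28 skewed genes, which were chosen for their d-scores whereas their neighbours were not, the neighbour median ran from 0.486 to 0.679. Beside Alk it was 0.532, beside Gabrg3 0.531 and beside Ptprm 0.561. The median CpG number was 25.5 in the 18 promoter windows of skewed genes and 26 in the 51 windows of the others.

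By edgeR's quasi-likelihood test of B6 against Cast counts over all times, 68 of 132 long genes were higher on B6 and 51 lower, beside 34.8% and 35.3% of the 11906 genes tested and 36.8% and 31.6% of the 11147 autosomal ones. Most genes of any length pass at this depth, so the size of the ratio tells more than the call. The 17 genes at 0.5 units or more with 50 allelic reads in every sample had d-scores of 0.437 to 0.609. Etl4 had a d-score of 0.504 and a log2 ratio of B6 to Cast of -0.10 ± 0.013 (adjusted p 1.9e-06, edgeR, relative to the scaling of both alleles), Ptprg had 0.535 with 0.08 ± 0.0083, and Exoc4 0.609 with 0.51. For Alk the log2 ratio was -5.62 ± 0.056 and for Pkhd1 3.05 ± 0.067.

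Few allelic ratios changed with DOX. No long gene was called at 4 h or 8 h, beside 0.353% and 1.65% of all genes and 0.00897% and 0.0718% of autosomal genes. At an unadjusted p under 0.05 in edgeR, 3 long genes (2.27%) were higher and 6 (4.55%) lower at 4 h, beside 2.43% and 1.75% of autosomal genes. At 8 h 4 (3.03%) were higher and 2 (1.52%) lower, beside 2.59% and 1.41%. DESeq2 called none at either time after adjustment. The lowest p-values were those of Galnt13 (log2 change in B6 over Cast -1.14 ± 0.38) and Astn2 (1.59 ± 0.62) at 4 h, and of Csmd2 (1.05 ± 0.38) and Grik2 (0.67 ± 0.28) at 8 h. At 12 h 1 of 132 long genes was called (0.758%), beside 2.16% of all genes and 0.179% of autosomal genes. At 24 h 3 of 132 were called, beside 2.65% and 0.350%. Of these 3, 2 moved toward B6 (1.52%) and 1 toward Cast (0.758%), beside 0.251% and 0.0987% of autosomal genes.

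At 12 h Pde4d, a phosphodiesterase that breaks down cyclic AMP (chromosome 13, 108654177 to 109955969), shifted toward Cast. Its d-score was 0.412 and 0.427 (0 h), 0.403 and 0.424 (4 h), 0.389 and 0.420 (8 h), 0.375 and 0.400 (12 h), and 0.395 and 0.417 (24 h). The 12 h samples lay below those of 0 h, with a log2 change of -0.19 ± 0.046 and an edgeR adjusted p of 0.0046. The call was lost without replicate 1 at 12 h (adjusted p 0.639) and without replicate 2 at 0 h.

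At 24 h Pkhd1 shifted further toward B6. Its d-score was 0.905 and 0.888 (0 h), 0.904 and 0.880 (4 h), 0.884 and 0.908 (8 h), 0.894 and 0.885 (12 h), and 0.939 and 0.918 (24 h), where both samples were above all others (log2 change 0.58 ± 0.11, edgeR adjusted p 1.3e-05). Gpc6, a glypican that carries heparan sulfate at the cell surface (chromosome 14, 116925297 to 117979529), moved from 0.767 and 0.768 (0 h) to 0.790 and 0.788 (24 h), a small shift over a narrow spread (log2 change 0.19 ± 0.050, edgeR adjusted p 0.013). Alk moved from 0.0261 and 0.0251 to 0.0121 and 0.0192 (log2 change -0.71 ± 0.18, edgeR adjusted p 0.0048), and its total was 275 and 220 CPM (0 h) against 199 and 186 (24 h). Leaving out replicate 1 at 24 h ended these 3 calls, with edgeR adjusted p-values of 0.104 for Pkhd1, 0.21 for Gpc6 and 0.667 for Alk. The call of Pkhd1 was also lost without replicate 2 at 0 h, that of Alk without replicate 1 at 0 h, and that of Gpc6 without any 0 h or 24 h library. DESeq2 called none of the 4 ratio changes at 12 h and 24 h. With an allele-by-replicate block 4 genes were called at 12 h (Pde4d, Gpc6, Hs6st3 and Cntnap2) and 5 at 24 h (Pkhd1, Gpc6, Alk, Elmo1 and Wwox), beside 2.37% and 2.88% of all genes and 0.368% and 0.538% of autosomal genes in turn.

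**Figure D5:**
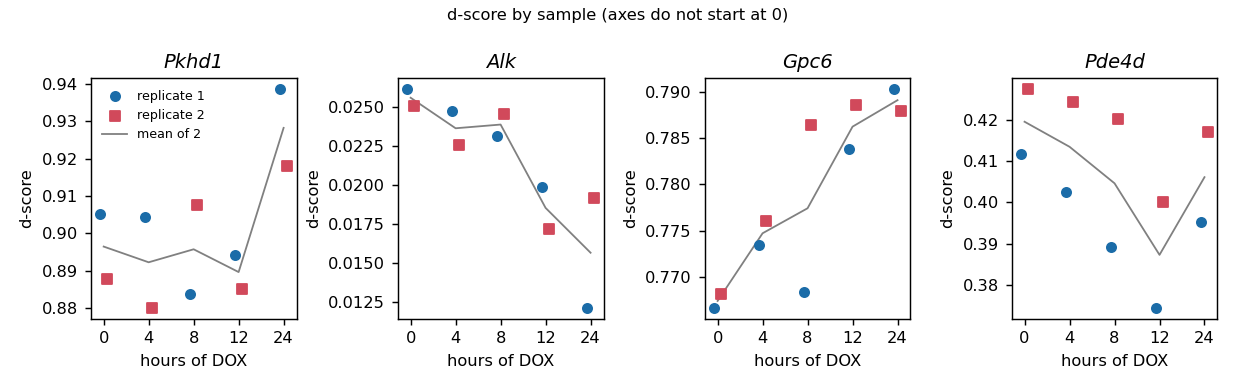
d-score of the 4 long genes called in a comparison of allelic ratios, against hours of DOX at even steps, with each replicate as a point and the mean as a line; the axes differ and do not start at 0. Pkhd1 is highest and Alk lowest at 24 h, Gpc6 lies at 0.788 to 0.790 at 24 h, and Pde4d is lowest at 12 h with its replicates apart.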

How the data were processed

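TT-seq libraries of 10 samples were grouped by hours of DOX and replicate from the labels. Per the study's methods, the authors trimmed reads with Cutadapt, aligned them with STAR to a strain-masked genome (unique, properly paired alignments), split alleles with SNPSplit and counted by strand with featureCounts 1.5.1 over the longest refFlat gene span, introns included. The submitters' processing notes name TopHat2 2.1.0, bedtools and mm10 instead of STAR. The deposited values are raw counts per gene for all, B6 and Cast reads. The authors' deposited fraction of B6 reads was recomputed from these counts. Spike-in scaling was not used here, so changes are relative to the library.

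Total counts were fitted with edgeR 4.0.16 (R 4.3.3; quasi-likelihood, TMM, filterByExpr) over all 10 samples, with time as a factor or as a linear term. Allelic counts were fitted as 20 columns with sample, allele and allele-by-time terms, for genes whose samples all had 10 or more allelic reads. Tests were two-sided with Benjamini-Hochberg adjustment over all genes. The fits were run on simulated data without replicate effects and with changes larger than those called here over time. These runs do not show how well changes of the size called here are recovered. Deviations of same-numbered replicates correlated at 0.142 to 0.281 over 10 pairs of times (mean 0.214), and the numbers were therefore taken to pair the samples. The main fits over time held no replicate term, so only the fits with the block used this pairing. Alternatives were DESeq2 1.42.0, the replicate block, other scalings, filters and count minimums, and each library left out. Libraries were left out of the fits without the block only.

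Genes named are the 10 highest levels (of which 1 is not reported here), the 3 longest, up to 8 called genes per comparison and direction (otherwise the 2 lowest p-values), the 5 highest and 5 lowest d-scores, genes beside the limits and the 2 highest of each list. Genes called only with the block, other lost calls, the printed promoters, the paired shares, the list median without Gpc6 and Alk and the trophoblast comparison were chosen after their values were seen. The members and lists were chosen with earlier results of these data known.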

Additional observations from a re-analysis of the deposited data

How the results depend on the processing

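Counts of called genes rested on small margins. Numbers called higher at 12 h (1) became 11 with the replicate block, 2 with DESeq2, 2 with no low-count filter, 0 with autosomal scaling and 0 with the share of counts in genes of 200 to 500 kb as a covariate, an alternative chosen after seeing the data. Numbers at 24 h (1 higher, 2 lower) became 4 and 10 with the replicate block. Numbers higher became 0 with autosomal scaling, with scaling from genes under 100 kb and with the covariate, and numbers lower became 1 with DESeq2, 4 with no filter and 1 among genes with a mean of 200 or more counts. The trend (1 and 3) became 2 and 11 with the replicate block, and its number lower 7 with DESeq2 and 5 with the covariate. Ratio changes (1 at 12 h, 3 at 24 h) became 0 and 0 with DESeq2 and 4 and 5 with the replicate block. The cause was not tested. Shares of all genes with the block are given above. DESeq2 called 0.288% of autosomal genes higher at 12 h, 0.318% higher and 0.244% lower at 24 h, and 0.924% lower by the trend. For the ratios it called 0.00897% in each direction at 12 h, and 0.00897% higher and 0 lower at 24 h. The other fits, those with a library left out included, are given without such shares, so their counts show nothing particular to long genes. With each library left out in turn, numbers ran from 0 to 3 higher at 12 h, 0 to 1 higher and 0 to 3 lower at 24 h, 0 to 1 and 1 to 5 for the trend, 0 to 4 and 0 to 5 for the ratios at 12 h and 24 h, and 66 to 68 and 50 to 53 for B6 against Cast. The change in the share of counts ran from -0.17 to 5.30% at 4 h, 0.51 to 4.92% at 8 h, 0.067 to 6.52% at 12 h and -0.21 to 3.07% at 24 h. The log2 change of Ccser1 at 12 h ran from -0.010, a reversal without replicate 1 of 12 h, to 0.52. Of 289 recomputed summary values 232 stayed within 1.5 times or 1 SD of the reported one. Leaving out the 6 spans that are not single units, also chosen after seeing the data, changed no count by over 1.5 times. At 2 replicates per time, changes within the spread shown here were not detectable, and counts near the minimum limit the genes of lowest level.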

Other observations

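Long genes outside the rule gave the following values. On autosomes 120 further genes of 500 kb or more had a mean count under 50, and 65 of them were at 0 in all 10 samples. Chromosome 16 held 10 genes of this length, 8 of them with a mean count of 50 or more. The transcriptional repressor gene Zbtb20 was the most transcribed of these, at 0.715 CPM per kb with a pooled d-score of 0.256. The X chromosome held 16, 9 of them with that mean count. The d-score of the dystrophin gene Dmd, on the chromosome that carries the induced Xist, was 0.427 ± 0.00602 (SD, n = 2) at 0 h and 0.127 ± 0.00912 at 24 h. That of Diaph2, a formin, was 0.474 ± 0.0145 and 0.306 ± 0.00379. The genes named here were chosen after their values were seen.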
